A study of Homo sapiens with 8 samples.

Results

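The genes described here are 43 transcripts of DNA replication licensing, origin firing and the E2F transcription factors, chosen by a list of symbols from 21059 genes in the table. RNA sequencing gave their levels in MDA-MB-157, an established human breast cancer cell line labelled negative for the estrogen receptor. Cells were kept for 48 h in serum-free medium that held glucose at 5 mM, called low glucose here, or at 25 mM, called high glucose, with 4 libraries of each, and all cells had been conditioned in low glucose before the switch. The comparison asks how the transcriptome of a single tumor line responds to a glucose level used to model diabetes. The labels of the 8 libraries name no osmotic control. The study added mannitol to low glucose medium in some experiments, among them proliferation and migration assays. It reported no difference in the phenotypes examined with and without mannitol, and does not name RNA sequencing among these experiments.

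A cell can copy its DNA only from origins that were licensed beforehand. The origin recognition complex (ORC1 to ORC6) binds DNA, and CDC6 and CDT1 then load the ring-shaped MCM2-7 helicase, while geminin (GMNN) binds CDT1 and blocks further loading. The DBF4-CDC7 kinase with CDC45 and GINS turns the loaded ring into an active helicase, and DNA polymerase alpha-primase makes the first primers. Many of these genes are known targets of the E2F family, in which E2F1 and E2F2 activate transcription and E2F7 and E2F8 repress it.

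Promoter sequences of several members hold the short elements that E2F proteins are known to bind, and they are shown because the changes of these transcripts are compared with them below. Of the 43 genes, 38 matched a RefSeq promoter window of 300 bases by symbol (GRCh38.p14, 250 bases before the transcription start and 50 after). The genes without an entry were MCM4, MCM5, GINS4, DNA2 and E2F8. The E2F element was searched as TTTCCCGC, TTTGGCGC, TTTCGCGC or TTTGCCGC on both strands. The windows below belong to genes of the helicase, the loading factors and the E2F family, read 5′ to 3′ along the gene, with each match in capitals. These windows came from members that held a match and passed the test for a change described below, taken by smallest adjusted p. A match and a change were therefore assured in each. They lie at chr7:100101348-100101647 (MCM7, minus strand), chr6:52284693-52284992 (MCM3, minus strand), chr17:40287629-40287928 (CDC6, plus strand) and chr20:33686336-33686635 (E2F1, minus strand).
MCM7: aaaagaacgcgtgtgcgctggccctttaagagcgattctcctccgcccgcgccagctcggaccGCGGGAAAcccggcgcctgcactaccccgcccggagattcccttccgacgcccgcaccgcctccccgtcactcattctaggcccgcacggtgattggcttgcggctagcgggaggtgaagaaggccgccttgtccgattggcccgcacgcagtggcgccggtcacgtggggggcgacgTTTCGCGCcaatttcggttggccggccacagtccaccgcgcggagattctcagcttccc
MCM3: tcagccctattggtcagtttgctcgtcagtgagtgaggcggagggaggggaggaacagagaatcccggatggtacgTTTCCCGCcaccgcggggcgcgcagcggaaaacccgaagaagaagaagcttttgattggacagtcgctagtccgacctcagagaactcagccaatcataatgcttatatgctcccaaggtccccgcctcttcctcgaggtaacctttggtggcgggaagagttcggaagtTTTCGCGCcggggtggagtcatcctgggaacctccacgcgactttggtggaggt
CDC6: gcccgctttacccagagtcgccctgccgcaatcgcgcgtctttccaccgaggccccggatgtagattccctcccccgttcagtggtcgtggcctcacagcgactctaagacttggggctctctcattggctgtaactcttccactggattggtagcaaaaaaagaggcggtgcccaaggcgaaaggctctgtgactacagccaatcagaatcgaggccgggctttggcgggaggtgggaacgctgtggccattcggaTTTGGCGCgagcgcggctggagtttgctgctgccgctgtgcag
E2F1: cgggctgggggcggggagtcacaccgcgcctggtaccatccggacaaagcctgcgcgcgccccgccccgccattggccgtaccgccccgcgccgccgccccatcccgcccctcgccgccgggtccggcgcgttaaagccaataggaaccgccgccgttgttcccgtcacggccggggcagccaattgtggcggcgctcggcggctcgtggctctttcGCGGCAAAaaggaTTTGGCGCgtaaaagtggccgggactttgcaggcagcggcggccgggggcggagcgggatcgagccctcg
The matches began 187 and 9 bases before the start of MCM7, 174 and 4 bases before that of MCM3, 33 and 20 bases before that of E2F1, and at base 8 after the start of CDC6. In MCM6 and MCM2 matches of both strands overlapped and formed palindromes or near-palindromes, and these shorter stretches were also picked after the values of the genes were seen. They lie at chr2:135876574-135876605 and chr2:135876512-135876543 (MCM6, minus strand) and chr3:127598403-127598434 (MCM2, plus strand).
MCM6, first pair: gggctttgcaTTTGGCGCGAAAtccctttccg
MCM6, second pair: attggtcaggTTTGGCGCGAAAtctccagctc
MCM2: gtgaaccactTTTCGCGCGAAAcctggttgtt

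Values are read counts scaled to a fixed library total (CPM), which the authors corrected with trimmed mean of M values factors. The libraries held an estimated 9721650 to 12482500 reads, and 1 read was worth 0.0706 to 0.0889 CPM. All 43 genes were well above this limit, with means from 5.06 to 175 CPM over the 8 libraries, and the lowest single value, CDT1 in low glucose replicate 2, was 3.31 CPM or about 40 reads. Transcripts were compared as log2(CPM + 1) with limma, p-values were adjusted over all 21059 genes by the Benjamini-Hochberg method, and an adjusted p under 0.05 was called a change. The labels do not say whether replicates were separate cultures in time, so the p-values measure the spread between these libraries, which may be technical. High glucose replicate 1 stood apart along transcript length. Its deviation from the mean of the other libraries of its group fell with length (Spearman rho -0.65 over 11223 genes). The same measure was -0.13 to 0.06 at low glucose. It was 0.25, 0.34 and 0.47 in the other high glucose libraries, whose reference means included high glucose replicate 1. Changes are therefore also given without that library where it matters. Markers of a mesenchymal line were present and ESR1, which encodes the estrogen receptor, was near 0. VIM (vimentin) was at 4060 to 4116 CPM at low and 2856 to 3282 CPM at high glucose, and ESR1 at 0.17 CPM or less. The 7 listed hormone receptor and luminal genes summed to 73.4 to 76.7 CPM at low and 51.4 to 56.3 CPM at high glucose. Most of this was ERBB2, which fell from 63.6 to 39.2 CPM. FOXA1 also fell. GATA3 rose from 0.12 to 1.09 CPM and EPCAM rose by 0.54 on the log2 scale. ESR1, PGR and CDH1 did not pass the test. The 5 markers listed for the line were VIM, CD44 and the epithelial keratins KRT8, KRT18 and KRT19. VIM, KRT8 and KRT18 fell, CD44 rose and KRT19 was at 0.08 CPM or less. The 5 listed markers of other cell types found in the table summed to 12.1 to 16.6 CPM at low and 13.6 to 16.98 CPM at high glucose, mostly CD68, and PTPRC did not exceed 0.18 CPM. Among them PECAM1 rose 2.13-fold (adjusted p = 0.00775) and VWF fell from 1.45 to 0.31 CPM (adjusted p = 0.00592), and the part of these shifts in the results was not tested.

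At high glucose 23 of the 43 transcripts rose, 5 fell and 15 did not pass the test, and without high glucose replicate 1 the counts were 22 and 4. The number that fell was 2 without low glucose replicate 1 or 2 and under median-of-ratios scaling, and 3 without low glucose replicate 3 or with equal totals. Those that rose included MCM3, MCM4 and MCM7 of the helicase, all 3 loading and inhibitory factors, the kinase subunit DBF4, the chromatin assembly subunit CHAF1A and the factors E2F1, E2F2 and E2F8. Those that fell were MCM6, ORC3, ORC5 and the primase subunits PRIM1 and PRIM2. The members called made up 65.1%, beside 46.8% of all genes and 66.9% of the 11297 genes with a mean of at least 5 CPM. The balance of directions was unequal, with 53.5% of members higher beside 22% of all genes and 33.6% of genes of at least 5 CPM, and 11.6% lower beside 24.8% and 33.3%. The members were chosen with earlier results of these data known, so these shares describe the list and do not test it. Their median log2 change was 0.21 (0.24 without high glucose replicate 1), beside -0.01 over all genes and over genes of at least 5 CPM. Groups did not overlap in 26 members (60.5%), beside 44.5% of all genes and 65% of genes of at least 5 CPM. A log2 change of at least 1 was reached by 4 members (ORC6, CHAF1A, E2F2 and E2F8), or 9.30%, beside changes of that size in either direction in 4.84% of all genes and 6.95% of genes of at least 5 CPM. In bulk RNA a larger or smaller share of cells in a given cell cycle phase and more or less RNA per cell cannot be told apart. The study also measured BrdU incorporation in several lines including this line at both glucose levels, and reported that high glucose did not enhance proliferation. How that assay relates to the transcripts of these libraries was not tested.

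**Figure D1:**
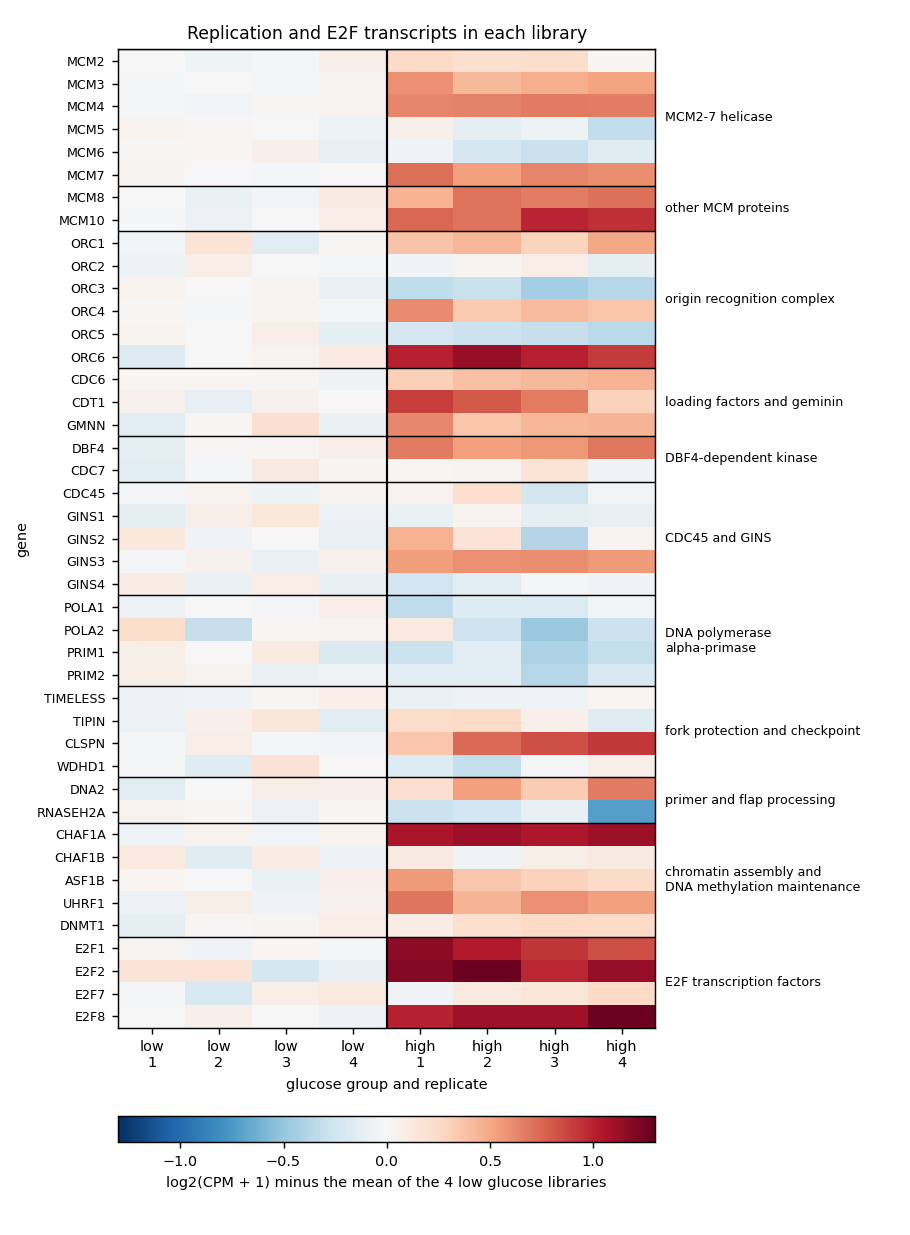
Level of each of the 43 transcripts (rows, grouped by role) in each of the 8 libraries (columns), as log2(CPM + 1) minus the mean of the 4 low glucose libraries, with red for higher and blue for lower. The high glucose columns are red for 3 of the 4 E2F factors and for CHAF1A, ORC6 and MCM10, and pale blue to near white for the polymerase alpha-primase rows, where POLA2 in high glucose replicate 1 is the exception.

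The 6 subunits of the MCM2-7 ring, which stand in equal number in the loaded helicase, did not change alike. MCM4 was at 133, 132, 137 and 140 CPM in low glucose replicates 1 to 4 and at 210, 212, 217 and 215 CPM in the high glucose replicates. MCM7 was at 141, 137, 135 and 138 CPM at low and 226, 200, 214 and 209 CPM at high glucose. MCM3 was at 106, 107, 106 and 110 CPM at low and 162, 145, 149 and 155 CPM at high glucose. In all 3 subunits every high glucose library lay above every low glucose library. The log2 changes were 0.65 (SE 0.02, adjusted p = 1.99e-06) for MCM4, 0.62 (SE 0.04, adjusted p = 1.86e-05) for MCM7 and 0.50 (SE 0.04, adjusted p = 4.44e-05) for MCM3, and each held without high glucose replicate 1 (0.66, 0.59 and 0.47).

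MCM2, a subunit that the DBF4-CDC7 kinase phosphorylates, moved little. It was at 43.4, 41.7, 43.1 and 45.9 CPM at low and 51.8, 50.2, 51.3 and 44.3 CPM at high glucose, so that high glucose replicate 4 lay inside the low glucose range. Its log2 change of 0.18 (SE 0.05, adjusted p = 0.0332) no longer passed when any of low glucose replicates 1, 2 and 3 or high glucose replicates 1, 2 and 3 was left out, with a highest adjusted p of 0.0848. The annotation places 32.4% of the MCM2 exon bases under a gene on the other strand, and whether the counting used strand is not given in the sources used here.

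MCM6, by contrast, was lower at high glucose. Its levels were 72.4, 72.9, 75.4 and 66.8 CPM at low and 69.2, 61.6, 58.5 and 64.3 CPM at high glucose, and the groups overlapped through low glucose replicate 4 and high glucose replicate 1. The log2 change of -0.18 (SE 0.06, adjusted p = 0.0411) became -0.22 without high glucose replicate 1 (adjusted p = 0.0123) but did not pass when any of the other libraries except low glucose replicate 4 was left out (highest adjusted p 0.101), nor under median-of-ratios scaling (log2 change -0.14, adjusted p = 0.0952). MCM5 was at 37.3, 36.9, 35.9 and 34.2 CPM at low and 37.8, 33.2, 34.4 and 28.6 CPM at high glucose. The MCM5 groups overlapped, and its log2 change of -0.11 (95% interval -0.30 to 0.08, adjusted p = 0.316) did not pass.

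Divided by transcript length, the subunit levels spread further apart at high glucose. At low glucose MCM7 had the highest level per kilobase, 55.8 ± 0.991 CPM per kb (SD, n = 4), followed by MCM3 (35.0 ± 0.705), MCM4 (33.4 ± 0.839), MCM6 (19.2 ± 0.970), MCM2 (12.7 ± 0.507) and MCM5 (10.4 ± 0.396). At high glucose the order was MCM7 (86.0 ± 4.51 CPM per kb), MCM4 (52.6 ± 0.715), MCM3 (49.8 ± 2.54), MCM6 (16.9 ± 1.22), MCM2 (14.4 ± 0.997) and MCM5 (9.69 ± 1.10). The library ranges of MCM3 and MCM4 overlapped in both groups, so their exchange of places was within the spread, and no other neighbours overlapped. The level of MCM7 was 5.35 times that of MCM5 at low and 8.88 times at high glucose.

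**Figure D2:**
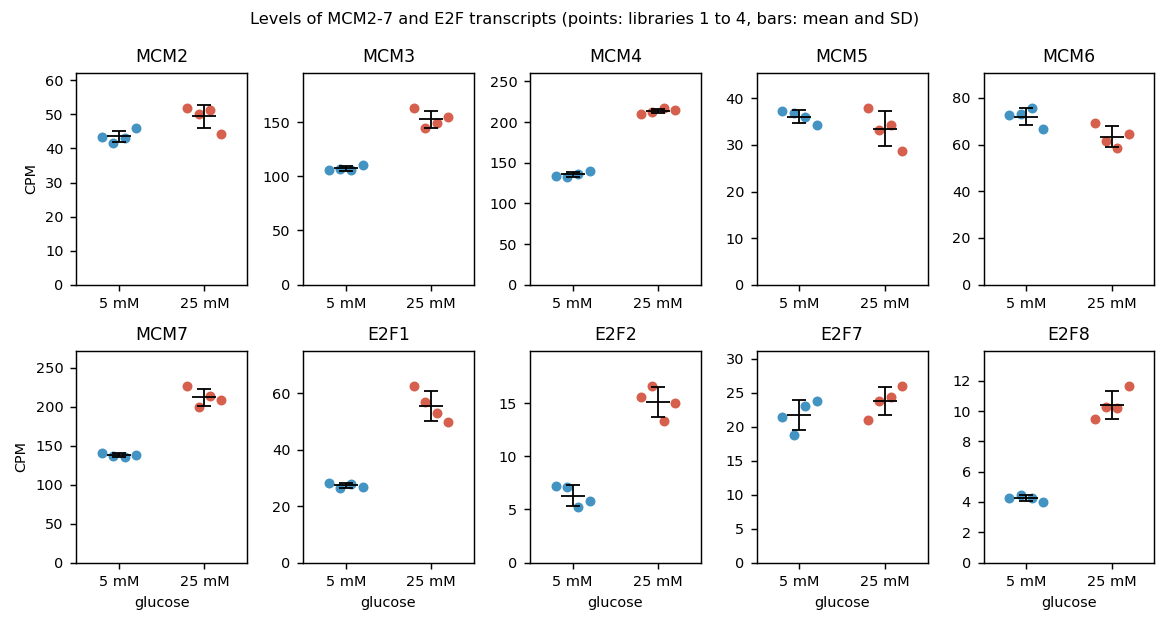
CPM of the 6 MCM2-7 subunits and the 4 E2F factors at 5 mM and 25 mM glucose, with a point for each library, in replicate order from left to right, and bars for the mean and SD (n = 4). MCM3, MCM4, MCM7, E2F1, E2F2 and E2F8 show 2 separate clouds, while the points of MCM2, MCM5, MCM6 and E2F7 overlap between glucose levels.

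The MCM proteins outside the ring both rose. MCM10, which helps to activate the helicase and recruit polymerase alpha, was at 23.1, 22.1, 23.4 and 24.9 CPM at low and 40.0, 38.7, 47.3 and 46.1 CPM at high glucose. MCM8, which acts with MCM9 in homologous recombination, was at 32.8, 30.7, 31.8 and 35.3 CPM at low and 44.9, 53.8, 52.1 and 54.2 CPM at high glucose. Neither gene overlapped between the groups, and the log2 changes were 0.85 for MCM10 (SE 0.07, adjusted p = 9.56e-05) and 0.63 for MCM8 (SE 0.07, adjusted p = 3.03e-04). In MCM8, 33.5% of the exon bases are shared with another annotated gene on the same strand, which makes its level uncertain.

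Within the origin recognition complex 3 subunits rose and 2 fell. ORC6, a small subunit needed for helicase loading, was at 7.38, 8.37, 8.76 and 9.34 CPM at low and 18.0, 19.6, 18.1 and 16.7 CPM at high glucose, a mean ratio of 2.14 (log2 change 1.02, SE 0.08, adjusted p = 4.83e-05). ORC3, a core subunit, was at 30.0, 29.2, 29.7 and 27.2 CPM at low and 22.9, 23.6, 21.1 and 22.2 CPM at high glucose (log2 change -0.36, SE 0.04, adjusted p = 5.66e-04). Neither ORC6 nor ORC3 overlapped between the groups. ORC2, another core subunit, was at 32.5, 36.3, 34.1 and 33.7 CPM at low and 33.0, 35.1, 36.3 and 31.3 CPM at high glucose, with overlapping groups and a 95% interval of -0.14 to 0.12 around a log2 change of -0.01 (adjusted p = 0.941).

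The other subunits also separated without overlap. ORC1, the ATPase that also touches nucleosomes, rose from 6.81 ± 0.733 to 9.26 ± 0.658 CPM (SD, n = 4, log2 change 0.40, adjusted p = 0.00684). ORC4, another ATPase-fold subunit, rose from 25.0 ± 0.544 to 34.1 ± 3.09 CPM (log2 change 0.43, adjusted p = 9.35e-04), and 6.58% of its exon bases lie under ACVR2A on the other strand. ORC5, also of the core, fell from 28.4 ± 1.91 to 23.1 ± 0.963 CPM (log2 change -0.29, adjusted p = 0.00397). Per kilobase, the order at low glucose was ORC5 (14.8 CPM per kb), ORC3 (11.6), ORC2 (7.96), ORC6 (5.24), ORC4 (3.82) and ORC1 (2.18), with no overlap between neighbours. At high glucose ORC6 (11.2 CPM per kb) stood second to ORC5 (12.0) with overlapping ranges, ahead of ORC3 (8.99) and ORC2 (7.91), which also overlapped, and ORC4 (5.21) and ORC1 (2.97) stayed last.

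The factors that load the helicase and their inhibitor rose together. CDC6, the ATPase that joins ORC at origins, was at 36.8, 36.8, 36.7 and 34.6 CPM at low and 45.0, 47.4, 48.7 and 49.9 CPM at high glucose. CDT1, which carries MCM2-7 to the origin, was at 3.83, 3.31, 3.82 and 3.64 CPM at low and 7.69, 7.09, 6.35 and 4.71 CPM at high glucose. GMNN was at 23.1, 25.7, 29.5 and 24.0 CPM at low and 39.7, 32.9, 34.6 and 35.0 CPM at high glucose. None of the 3 genes overlapped between the groups, although high glucose replicate 4 of CDT1 came near the low glucose level. The log2 changes were 0.39 (SE 0.04, adjusted p = 1.45e-04) for CDC6, 0.67 (SE 0.14, adjusted p = 0.00566) for CDT1 and 0.46 (SE 0.09, adjusted p = 0.00387) for GMNN. The plain log2 ratio of CDT1 to its inhibitor GMNN overlapped between groups, with means of -2.80 ± 0.179 at low and -2.48 ± 0.292 at high glucose (SD, n = 4, exact permutation p = 0.114).

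Of the kinase that fires licensed origins, the regulatory subunit rose and the catalytic subunit did not pass the test. DBF4 was at 32.8, 36.1, 36.6 and 37.9 CPM at low and 57.8, 52.4, 53.5 and 58.4 CPM at high glucose, with no overlap (log2 change 0.62, SE 0.05, adjusted p = 1.01e-04). CDC7 was at 14.3, 15.7, 17.2 and 16.2 CPM at low and 16.2, 16.2, 18.1 and 15.3 CPM at high glucose, with overlapping groups (log2 change 0.05, 95% interval -0.12 to 0.22, adjusted p = 0.622).

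Among CDC45 and the 4 GINS subunits, which form the active helicase together with the MCM ring, GINS3 alone passed the test. GINS3 was at 7.79, 8.32, 7.41 and 8.32 CPM at low and 12.1, 12.5, 12.6 and 12.2 CPM at high glucose, with no overlap (log2 change 0.58, SE 0.05, adjusted p = 8.15e-05), and 14.4% of its exon bases lie under a gene on the other strand. GINS4 was at 31.1, 27.4, 31.0 and 27.2 CPM at low and 24.3, 26.4, 28.6 and 28.1 CPM at high glucose (log2 change -0.11, 95% interval -0.28 to 0.05, adjusted p = 0.221), and 33.4% of its exon bases lie under genes on the other strand. CDC45 was at 11.5, 12.0, 11.0 and 12.0 CPM at low and 12.0, 13.7, 9.73 and 11.3 CPM at high glucose, where replicates 2 and 3 lay on either side of the low glucose range. Its 95% interval ran from -0.23 to 0.22 on the log2 scale. The intervals were -0.24 to 0.10 for GINS1 and -0.33 to 0.47 for GINS2, both with overlapping groups.

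The 4 subunits of DNA polymerase alpha-primase, the enzyme that starts each new strand, all had negative log2 changes, and 2 of them passed the test. PRIM2, the large primase subunit, was at 34.2, 33.5, 30.5 and 31.4 CPM at low and 29.1, 29.1, 24.8 and 28.1 CPM at high glucose, with no overlap (log2 change -0.22, SE 0.06, adjusted p = 0.0238). PRIM1, the catalytic primase subunit, was at 6.50, 6.13, 6.70 and 5.23 CPM at low and 4.87, 5.42, 4.37 and 4.76 CPM at high glucose, where low glucose replicate 4 lay below high glucose replicate 2 (log2 change -0.28, SE 0.09, adjusted p = 0.0388). The noncatalytic POLA2 was at 13.5, 9.04, 11.6 and 11.8 CPM at low and 12.5, 9.25, 7.87 and 9.22 CPM at high glucose, with broad overlap (log2 change -0.23, 95% interval -0.60 to 0.15, adjusted p = 0.295). POLA1, the catalytic polymerase subunit, went from 47.3 ± 2.33 to 41.8 ± 3.57 CPM (SD, n = 4, log2 change -0.18, 95% interval -0.33 to -0.02, adjusted p = 0.0622).

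The calls of the primase subunits were fragile. PRIM1 lost its call without any of low glucose replicates 1, 2 and 3 or high glucose replicates 1, 3 and 4 (highest adjusted p 0.0974), and PRIM2 without low glucose replicate 1 or 2 (adjusted p = 0.0633 and 0.0635). When the trend with transcript length was removed, neither passed (adjusted p = 0.188 for PRIM1 and 0.0744 for PRIM2), nor did they under median-of-ratios scaling (adjusted p = 0.0659 and 0.0565), whereas without the length trend POLA1 passed (log2 change -0.21, adjusted p = 0.00456). Shared annotation also limits these levels, since 54.0% of PRIM2 exon bases, 28.9% of PRIM1 and 55.8% of POLA2 lie in another gene on the same strand.

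Of the fork protection and checkpoint genes, CLSPN rose and the others did not pass. CLSPN encodes claspin, the adaptor that passes the ATR signal to CHK1, and was at 21.0, 22.7, 20.9 and 20.8 CPM at low and 27.5, 36.3, 38.8 and 41.3 CPM at high glucose. No library overlapped, and among those at high glucose the first replicate had the lowest level. The log2 change was 0.71 (SE 0.12, adjusted p = 0.00235) and 0.83 without that replicate (adjusted p = 6.13e-05). TIMELESS, a fork protection protein, was at 66.1, 67.2, 70.1 and 73.8 CPM at low and 65.3, 65.9, 66.7 and 70.7 CPM at high glucose (log2 change -0.04, 95% interval -0.14 to 0.05, adjusted p = 0.437). Its partner TIPIN was at 6.001, 6.71, 7.13 and 5.68 CPM at low and 7.69, 7.73, 6.68 and 5.60 CPM at high glucose (log2 change 0.10, 95% interval -0.17 to 0.37, adjusted p = 0.533). Both pairs of groups overlapped, as did those of WDHD1, which links polymerase alpha to the helicase (log2 change -0.10, 95% interval -0.35 to 0.14).

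Of the genes of primer and flap processing, DNA2 rose and RNASEH2A did not pass the test. DNA2, a nuclease-helicase that trims flaps and resects DNA ends, was at 10.9, 12.3, 12.9 and 12.8 CPM at low and 14.3, 18.1, 15.6 and 20.1 CPM at high glucose and rose by 0.44 on the log2 scale (SE 0.11, adjusted p = 0.0137). RNASEH2A, the catalytic subunit of RNase H2, was at 26.2, 25.6, 24.0 and 25.6 CPM at low and 20.6, 21.2, 23.5 and 15.0 CPM at high glucose. Its groups did not overlap, but high glucose replicate 4 lay far below the rest and the log2 change of -0.34 (SE 0.13, adjusted p = 0.064) missed the threshold. Without that library it was -0.21 with an adjusted p of 0.0219, it also passed without high glucose replicate 3 (adjusted p = 0.0348), and 94.1% of its exon bases are shared with THSD8 on the same strand.

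Chromatin assembly held the transcript with the smallest adjusted p of the 43. CHAF1A, the large subunit of the CAF-1 complex that places histones on new DNA, was at 24.4, 26.3, 24.7 and 26.4 CPM at low and 54.2, 56.3, 53.6 and 56.2 CPM at high glucose. The groups lay far apart, with a mean ratio of 2.16 (log2 change 1.08, SE 0.03, adjusted p = 1.54e-06). CHAF1B, the middle subunit of the same complex, was at 32.3, 26.3, 31.6 and 28.0 CPM at low and 32.1, 28.4, 31.1 and 32.1 CPM at high glucose, and these groups overlapped (log2 change 0.07, 95% interval -0.11 to 0.24, adjusted p = 0.514).

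UHRF1, which recognises hemimethylated DNA, was at 38.5, 43.0, 38.9 and 42.3 CPM at low and 66.2, 55.4, 61.8 and 59.2 CPM at high glucose, with no overlap (log2 change 0.56, SE 0.06, adjusted p = 2.99e-04). DNMT1, the maintenance methyltransferase that UHRF1 brings to the fork, rose less, from 131 ± 8.12 to 151 ± 7.91 CPM (SD, n = 4, log2 change 0.21, SE 0.06, adjusted p = 0.0198). The DNMT1 call was lost without high glucose replicate 3 (adjusted p = 0.054) or replicate 4 (adjusted p = 0.052). ASF1B, a histone chaperone that hands histones to CAF-1, rose from 31.5 ± 1.43 to 40.9 ± 4.08 CPM (log2 change 0.36, SE 0.07, adjusted p = 0.00466).

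Among the E2F members, the activators E2F1 and E2F2 and the repressor E2F8 rose to more than 2 times their low glucose mean. E2F1 was at 28.1, 26.5, 27.9 and 26.8 CPM at low and 62.5, 56.8, 52.9 and 49.8 CPM at high glucose. E2F2 was at 7.17, 7.12, 5.18 and 5.75 CPM at low and 15.6, 16.6, 13.3 and 15.0 CPM at high glucose. E2F8 was at 4.25, 4.47, 4.25 and 4.01 CPM at low and 9.46, 10.3, 10.2 and 11.6 CPM at high glucose. In these 3 genes the lowest high glucose library was well above the highest low glucose library. The mean ratios were 2.03 for E2F1 (log2 change 0.99, SE 0.07, adjusted p = 2.97e-05), 2.40 for E2F2 (log2 change 1.15, SE 0.11, adjusted p = 1.76e-04) and 2.45 for E2F8 (log2 change 1.12, SE 0.07, adjusted p = 2.12e-05).

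E2F7, the other repressor, was at 21.5, 18.8, 23.1 and 23.7 CPM at low and 21.0, 23.8, 24.3 and 26.0 CPM at high glucose. These groups overlapped, and the log2 change of 0.12 (95% interval -0.09 to 0.33, adjusted p = 0.315) did not pass. Per kilobase, E2F1 had the highest level of the 4 in both groups (10.2 and 20.6 CPM per kb), ahead of E2F7 (3.81 and 4.15). E2F2 (1.21 and 2.91 CPM per kb) and E2F8 (1.15 and 2.81) came last, with overlapping ranges in both groups.

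**Figure D3:**
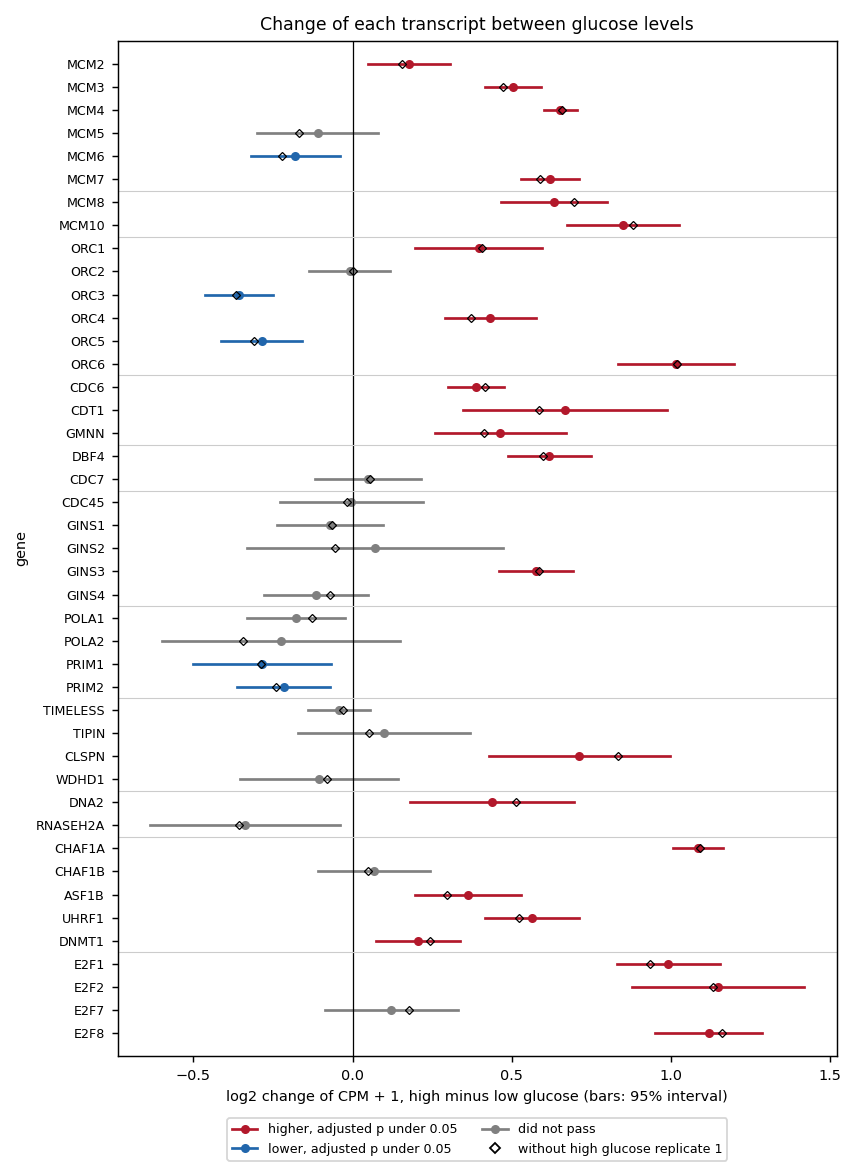
Log2 change of CPM + 1 between high and low glucose for each of the 43 transcripts, with the 95% interval as a bar, red for higher, blue for lower and grey for not passing an adjusted p of 0.05. Open diamonds give the change without high glucose replicate 1 and lie inside the interval of every gene, including CLSPN (0.71 with and 0.83 without that library).

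Partners that act together were compared as ratios within each library, each computed as a difference of log2(CPM + 1). Over 7 pairs, the log2 ratio of CHAF1A to CHAF1B showed the widest shift, from -0.39, 0.00, -0.34 and -0.09 at low to 0.74, 0.96, 0.77 and 0.79 at high glucose, a difference of 1.02. The ratio of DBF4 to CDC7 went from 1.15, 1.16, 1.04 and 1.18 to 1.78, 1.64, 1.52 and 1.87, a difference of 0.57, and that of UHRF1 to DNMT1 differed by 0.36. In these 3 pairs no library overlapped, and each had an exact 2-sided permutation p of 0.0286, the smallest that 70 assignments of the libraries can give. Adjusted over the 7 ratios the p was 0.0667 for each. An adjusted p under 0.05 needed more of the 7 pairs to reach that smallest p, so these 3 could not pass whatever their size. The adjusted test therefore could not decide on them. The ratios of CDT1 to GMNN, TIMELESS to TIPIN, POLA1 to POLA2 and PRIM1 to PRIM2 overlapped between groups, with differences of 0.20, -0.14, 0.05 and -0.07 and exact permutation p of 0.171, 0.286, 0.83 and 0.571 (adjusted p from 0.3 to 0.83). Plain ratios without the added 1 CPM, which do not depend on library scaling, were computed after seeing the data. They differed by 1.05, 0.58 and 0.37 in the first 3 pairs, again with an adjusted p of 0.0667 each, under the same limit. In the other pairs they differed by 0.32, -0.16, 0.07 and -0.11, and none passed (adjusted p from 0.2 to 0.743).

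**Figure D4:**
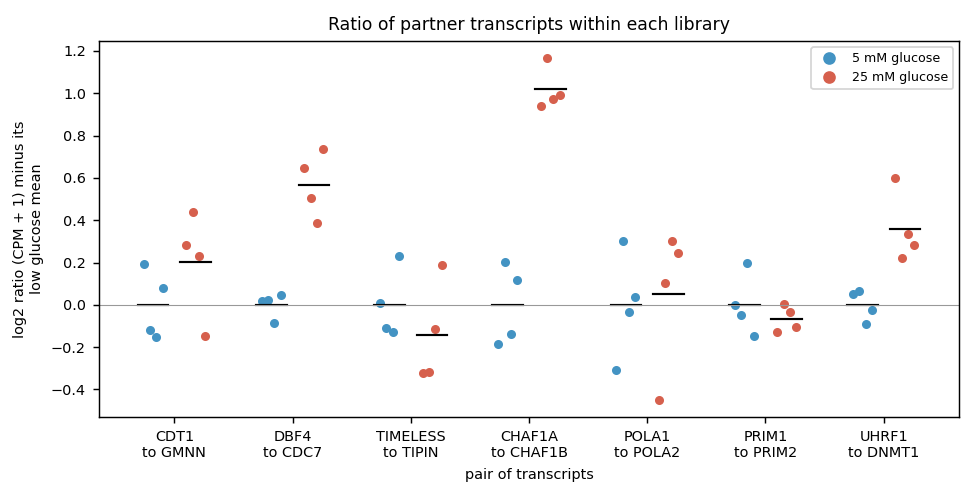
Log2 ratio (CPM + 1) of partner transcripts in each library, minus the low glucose mean of the pair, at 5 mM (blue) and 25 mM glucose (red), with a black line for each group mean. The 4 red points lie above the 4 blue points for DBF4 to CDC7, CHAF1A to CHAF1B and UHRF1 to DNMT1, and overlap with them in the other 4 pairs.

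The promoter elements were then set beside these changes. At least 1 E2F element was found in 18 of the 38 windows (47.4%), beside 3.31% of all 35116 RefSeq promoter windows and 5.03% of the windows of genes with at least 5 CPM. It was found in 12 of the 20 windows of members that rose (60%), in 2 of the 5 that fell (MCM6 and ORC3) and in 4 of the 13 that did not pass (POLA1, POLA2, GINS1 and GINS2). All 4 MCM2-7 genes with a window (MCM2, MCM3, MCM6 and MCM7) held at least 2 matches when both strands were counted. MCM6, which fell, held the most, 4, but these formed 2 overlapping pairs. The 2 matches of MCM2 also overlapped, and those of MCM3 and MCM7 did not. CHAF1A, ORC6, MCM10, DBF4, ORC4, GMNN, ASF1B and ORC1 rose and had no match to these letters in the window. The CCAAT box, searched as CCAAT on both strands, was found in 24 of the 38 windows (63.2%), beside 34.6% of all promoter windows. These counts describe letters in a window and no binding was measured.

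Genes of the same pathways outside the 43 were described from lists, for which the shares of all genes called higher (22%) and lower (24.8%) are the background. The lists too were chosen with earlier results of these data known, so their counts are descriptions and no test. Among genes with a mean of at least 5 CPM, as nearly all listed genes had, these shares were 33.6% and 33.3%. The first list held 14 other E2F factors and partners, RB family proteins and subunits of the MuvB complex, which represses or activates cell cycle genes. Of these 10 rose and 2 fell, with a median log2 change of 0.45. E2F3, an activator named after its value was seen, rose from 38.0 to 55.3 CPM (log2 change 0.53, adjusted p = 8.24e-05). LIN52, a MuvB subunit, was at 30.6, 30.2, 28.0 and 25.5 CPM at low and 79.6, 74.9, 76.6 and 78.1 CPM at high glucose (log2 change 1.41, SE 0.06, adjusted p = 3.85e-06). MYBL2, the MYB protein that joins MuvB in S phase, rose from 68.1 ± 1.70 to 123 ± 8.89 CPM (log2 change 0.84, adjusted p = 2.01e-05), and the DNA-binding subunit LIN54 from 25.8 ± 1.32 to 46.2 ± 3.44 CPM (log2 change 0.82, adjusted p = 4.85e-05). LIN37 had the largest adjusted p (0.395). Both genes that fell are named after their values were seen. RBL2, which encodes the pocket protein p130 of resting cells, fell from 31.9, 29.1, 31.0 and 28.3 CPM to 15.0, 17.7, 13.5 and 17.3 CPM (log2 change -0.89, adjusted p = 1.89e-04), and the E2F partner TFDP2 fell from 45.9 ± 1.22 to 35.1 ± 1.90 CPM (log2 change -0.38, adjusted p = 2.87e-04).

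Of 15 further licensing and origin firing factors 8 rose and 1 fell, with a median log2 change of 0.29. FBXO5, an inhibitor of the anaphase-promoting complex, rose from 21.9 ± 0.630 to 39.0 ± 0.784 CPM (log2 change 0.80, adjusted p = 2.00e-06). DTL (log2 change 0.73, adjusted p = 1.10e-05) and CUL4A (log2 change 0.52, adjusted p = 1.05e-05), parts of the ubiquitin ligase that removes CDT1 in S phase, rose as well. SKP2, the substrate receptor of another ligase that acts on CDT1, fell from 42.2 ± 1.61 to 31.7 ± 0.789 CPM (log2 change -0.40, adjusted p = 6.60e-05) and is named after its value was seen. DBF4B, a second activator of CDC7, had the largest adjusted p (0.732, log2 change -0.05).

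Of 27 S phase synthesis and fork genes 16 rose and 5 fell, with a median log2 change of 0.25. CCNE2 and CCNE1, the E cyclins that drive entry into S phase, rose by 0.75 (adjusted p = 1.26e-05) and 0.43 (adjusted p = 1.37e-04) on the log2 scale, and the ribonucleotide reductase subunit RRM2 rose by 0.44 (adjusted p = 8.56e-05). Of the CCNE2 exon bases 57.1% lie under genes on the other strand, as do 22.0% of FOXM1, 20.4% of RBL2 and 17.1% of DUT, so these levels are uncertain. POLD1, the catalytic subunit of polymerase delta, had the largest adjusted p (0.96). Those that fell included RPA3 (-0.41), POLD2 (-0.21), LIG1 (-0.32) and DUT (-0.56), each as a log2 change and named after its value was seen. All 17 G2 and mitosis genes rose, with a median log2 change of 0.57. The smallest adjusted p belonged to AURKA (log2 change 0.82, adjusted p = 2.52e-06), TPX2 (0.53, adjusted p = 4.60e-06) and FOXM1 (0.79, adjusted p = 1.48e-05), while AURKB had the largest adjusted p (0.0272, log2 change 0.20). The AURKB call was lost without low glucose replicate 1, 2 or 4 or high glucose replicate 4 (highest adjusted p 0.0696), and with 1 library left out 15 to 17 of these genes and 17 to 20 of the S phase genes were called.

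**Figure D5:**
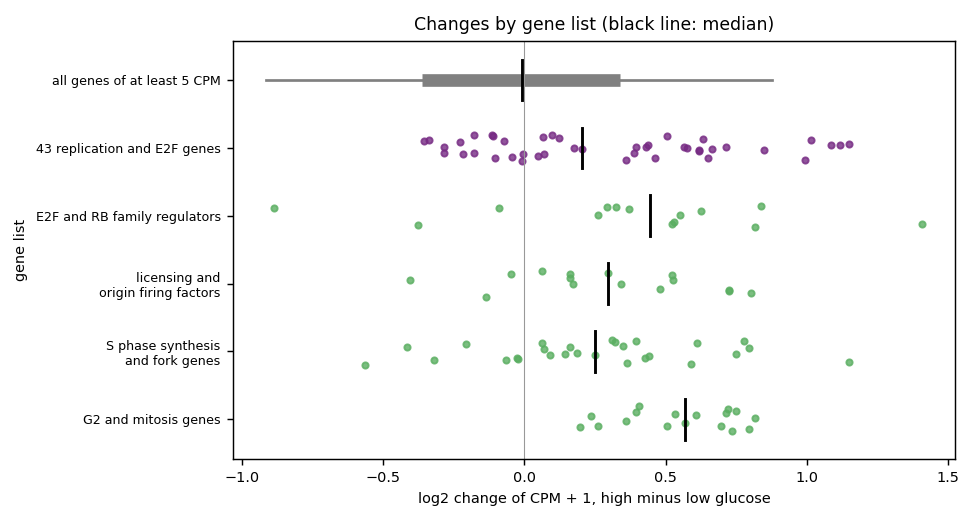
Log2 change between high and low glucose by gene list, with a point for each gene and a black line at the median. For all genes of at least 5 CPM the thick grey bar spans the 25th to 75th percentile (-0.36 to 0.34) and the thin line the 5th to 95th (-0.91 to 0.88), around a median of -0.01, and the list medians lie at 0.21 (the 43 genes), 0.45, 0.29, 0.25 and 0.57.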

How the data were processed

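RNA sequencing libraries of MDA-MB-157 cells (4 at low and 4 at high glucose) were grouped by their labels. The deposited values are CPM that the authors scaled with TMM factors from edgeR, per the labels with the hg38 build. The study's methods, written first for tumors, name TopHat, Trimmomatic and hg19, so the build of the table, the counting tool and its use of strand are not given in the sources used here. Low values were multiples of 0.01 read, and 72.0% to 73.3% of values under 200 reads were whole within 0.005 read, so the counts below them are fractional estimates and no count test was run. Of 21077 lines, 18 pseudoautosomal Y copies identical to the X copies were left out, and 856 of the 21059 genes tested were 0 in all libraries. Reads were estimated from the step of low values. The members and lists were chosen with earlier results of these data known.

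Genes were fitted with limma 3.58.1 in R 4.3.3 on log2(CPM + 1), with a mean-variance trend and no covariate, 2-sided, which understates the change of low genes. In simulated data 200 genes of at least 5 CPM among 21059 were changed 2-fold. The fit recovered 179 of these and called 22 unchanged ones, and with no change it called 1. Smaller changes, and changes in as many genes as were called here, were not simulated. Levels in every library are given for members of MCM2-7, the loading factors and geminin, and E2F. In the other roles they are given for both members with the smallest adjusted p and the member with the largest. In each pathway list at most 3 with the smallest and 1 with the largest adjusted p are named. Other genes are said to be chosen after their values were seen. 1 gene of the S phase list is not reported here. Ratios, on the same log2(CPM + 1) scale, were compared by exact permutation over 70 assignments. Transcript lengths and exon overlaps came from GENCODE 44 canonical transcripts mapped to GRCh37 (20730 genes), and promoters from RefSeq (GRCh38.p14). Of 17 symbols held by 2 identifiers the one with the higher mean was used. Alternatives were a pseudocount of 0.1 CPM, filters at 1 and 5 CPM, other scalings, array weights, a replicate block, removal of a length trend and each library left out. Depths cover counting error only. Replicate numbers did not pair the libraries (correlations of same-numbered deviations 0.07, -0.03, 0.01 and -0.04).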

Additional observations from a re-analysis of the deposited data

Results flagged for a closer look

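A library far from the other 3 of its group was seen in 5 of 132 groups of 4 examined, where chance gives about 6.6, by a gap to the nearest library, divided by the whole range, above the 95% critical value of Dixon. CDC6 in low glucose replicate 4 was at 34.6 CPM beside 36.7 to 36.8 (gap 0.964 of the range). CLSPN in low glucose replicate 2 was at 22.7 CPM beside 20.8 to 21.0 (0.873). RRM2 in low glucose replicate 3 was at 104 CPM beside 97.0 to 98.1 (0.859). High glucose replicate 1 stood out for LIN54, at 41.1 CPM beside 47.2 to 48.3 (0.846), and for CCNE2, at 21.6 CPM beside 20.4 to 20.5 (0.874).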

How the results depend on the processing

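The number of members that rose stayed between 21 and 23 under all 17 alternatives, and 21 of the 23 kept call and direction in each of them, the exceptions being MCM2 and DNMT1. The number that fell was less stable: 2 with median-of-ratios scaling, 3 with columns set to an equal total, 2 to 5 with 1 library left out (2 without low glucose replicate 1 or 2, 3 without low glucose replicate 3) and 7 with a filter at 1 or 5 CPM. Of the 5 that fell, only ORC3 and ORC5 kept their call throughout. With length trend and high glucose replicate 1 removed together, an alternative chosen after seeing the data, 22 rose and 6 fell. The replicate block gave 22 higher and 4 lower members and 8921 called genes beside 9849. Under it the MCM2, MCM6 and PRIM1 calls were lost and POLA1 was called, and no other member changed. Directions turned only in values near 0 that had not passed, and the cause was not tested. ORC2 was 0.032 (median-of-ratios), 0.015 (equal total), 0.016 (array weights) and -0.042 to 0.028 with a library left out. CDC45 was 0.035 and 0.019 under the same scalings, 0.046 with the length trend removed, 0.075 with high glucose replicate 1 also left out, and -0.078 to 0.073 with a library left out. GINS2 was -0.032 with array weights, -0.031 with length trend and replicate 1 removed and -0.056 to 0.22 with a library left out. LIN37 was 0.0205 and 0.0604 without the length trend (all libraries, and without replicate 1). With a library left out DBF4B ranged from -0.11 to 0.0038, POLD1 from -0.12 to 0.076 (0.014 with median-of-ratios) and the POLA1 to POLA2 ratio from -0.053 to 0.22. Without a pseudocount the ratio of CDT1 to GMNN differed by 0.32 and not 0.20, and that of PRIM1 to PRIM2 by -0.11 and not -0.07. The comparison of MCM protein sequences was not run.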
